A study of Homo sapiens with 6 samples.

Results

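Metalloproteases of the MMP, ADAM and ADAMTS families, their TIMP inhibitors and the ADAMTS-like proteins were followed in H1299 cells that overexpress the long non-coding RNA lncBCAS1-4_1. Members were all entries of the count table whose symbol is that of an MMP, a TIMP, an ADAM, an ADAMTS or an ADAMTSL gene with a number, which gave 42 of 19201 entries. These were 14 MMPs, 2 TIMPs, 13 ADAMs, 10 ADAMTS proteases and 3 ADAMTS-like genes. GENCODE 44 lists 71 protein-coding genes with such names, and MMP3, MMP7, TIMP3, TIMP4, ADAMTS4 and ADAMTS5 are among those not analysed here. H1299, a cell line of human non-small cell lung cancer, is widely used in the laboratory. RNA-seq of total RNA compared 3 libraries of H1299 cells with lncBCAS1-4_1 overexpression (OE) with 3 libraries of wild-type H1299 cells (control). The labels give no treatment, vector or clone for either group, so the overexpressed RNA and the procedure that delivered it cannot be told apart. The source of the replicates is not described either, and p-values therefore measure the spread between these libraries, which may be technical.

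Matrix metalloproteases are zinc enzymes that are made as inactive precursors and cleave collagens and other matrix proteins, either after secretion or anchored in the cell membrane. TIMPs bind the active site of MMPs and of some ADAMs and block them. ADAMs are membrane proteins that cut the extracellular parts off growth factor precursors and receptors, and several of them lack a working catalytic site and act as adhesion or synaptic ligands. ADAMTS enzymes are secreted, trim procollagens and proteoglycans and cut von Willebrand factor, while ADAMTS-like proteins share their binding domains but not the protease. In lung cancer these enzymes are known for their part in invasion and in the release of growth factors.

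The genes differ in how their promoters are built, and 3 of them are shown as examples. MMP24 and MMP15 are membrane-type MMPs that were higher in OE cells before any correction for base composition. MMP10 is a secreted MMP with no difference past the threshold. RefSeq windows (GRCh38.p14, 250 bases before to 50 after the start) matched 24 of the 42 members. They were searched on both strands for the AP-1 motif TGANTCA and the TATA motif TATAAA, which do not overlap here, and capitals mark the matches. MMP24 lies on the plus strand at chr20:35226440-35226739, MMP15 on the plus strand at chr16:58025504-58025803 and MMP10 on the minus strand at chr11:102780579-102780878.
MMP24: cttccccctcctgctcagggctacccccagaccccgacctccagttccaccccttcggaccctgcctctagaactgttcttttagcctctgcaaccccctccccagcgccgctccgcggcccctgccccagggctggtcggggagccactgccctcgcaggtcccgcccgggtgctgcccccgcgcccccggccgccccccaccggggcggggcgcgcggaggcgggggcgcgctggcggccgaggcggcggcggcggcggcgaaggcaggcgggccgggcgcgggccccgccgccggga
MMP15: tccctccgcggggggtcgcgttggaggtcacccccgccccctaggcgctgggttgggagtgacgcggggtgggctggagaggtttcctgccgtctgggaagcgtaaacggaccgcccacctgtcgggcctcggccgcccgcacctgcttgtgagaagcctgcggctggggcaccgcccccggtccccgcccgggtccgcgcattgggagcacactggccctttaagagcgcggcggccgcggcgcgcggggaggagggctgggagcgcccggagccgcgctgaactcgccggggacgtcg
MMP10: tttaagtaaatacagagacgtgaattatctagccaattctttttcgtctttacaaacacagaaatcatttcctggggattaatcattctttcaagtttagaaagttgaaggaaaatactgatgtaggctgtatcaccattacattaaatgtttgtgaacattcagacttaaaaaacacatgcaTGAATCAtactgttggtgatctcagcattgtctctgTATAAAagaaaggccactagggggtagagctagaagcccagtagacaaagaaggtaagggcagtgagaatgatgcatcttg
The MMP10 window had a GC content of 36.33% and held 1 AP-1 match that begins at -67 and 1 TATA match at -31 from the start. The MMP24 and MMP15 windows had a GC content of 80% and 75.33% and neither motif. Members that were lower as fitted had such windows too. ADAM10, ADAM12, ADAM22 and ADAMTS3 had 68%, 71%, 66.33% and 72.67% GC and neither motif. Among the 24 windows, 1 held the AP-1 motif, against 7.71% of 35116 human promoter windows of the same length. The TATA motif was in 2, against 11.5%, and the match in ADAM21 begins at +40, after the start.

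Depth was even, with 84531039 to 90102655 counts in OE libraries and 87393887 to 92780032 in control libraries. Each entry reached 10 counts in 3 or more libraries, so low members appear only where that held. CYP24A1, the vitamin D hydroxylase named in the series title, was at 2513 to 3587 CPM (counts per 1000000 library counts after TMM scaling) in OE libraries and at 0.602 to 0.909 CPM in control libraries. No entry had BCAS1 in its name, so the overexpressed RNA could not be followed by its name. Whether its reads were counted under another entry, CYP24A1 included, was not tested. Fold changes across the table followed the GC content of the transcripts, with a Spearman correlation of 0.66 across 13887 entries at 1 CPM or more, and 0.015 once GC content and transcript length were corrected for. Values are therefore given as fitted and corrected for the members at 1 CPM or more. Epithelial markers (4 of 5 measured) summed to 1677 to 1890 CPM in OE and 1261 to 1429 CPM in control libraries. Of the 4, 3 were higher as fitted and 1 after the correction. Nearly all of the sum was the keratins KRT8 and KRT18. KRT7 averaged only 5.09 CPM in OE and 2.79 CPM in control libraries. KRT19 was near the floor, at 0.170 CPM in OE and 0.184 CPM in control libraries, and EPCAM was not analysed here. Fibroblast markers (3 of 7 measured) summed to 2.26 to 3.58 CPM in OE and 2.16 to 3.06 CPM in control libraries, and endothelial markers (3 of 4) to 1.04 to 1.73 CPM in OE and 0.976 to 1.71 CPM in control libraries. Leukocyte markers (3 of 6) summed to 80.03 to 89.4 CPM in OE and 69.95 to 74.3 CPM in control libraries, nearly all of it CD68, with PTPRC, CD3E and LYZ not analysed here, and CD14 averaged 1.28 CPM in OE and 0.109 CPM in control libraries. The part of these marker differences in the results was not tested.

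Both inhibitors were above every protease in each group. Per kilobase of canonical transcript, TIMP1 averaged 257 ± 13.8 CPM in OE and 208 ± 17.4 CPM in control cells (SD, n = 3 each), and TIMP2 76.7 ± 3.8 CPM in OE and 62.5 ± 4.4 CPM in control cells. The most abundant MMP was the membrane-bound MMP14, the activator of MMP2 at the cell surface, at 14.2 ± 2.2 CPM per kb in OE and 13.2 ± 1.1 CPM per kb in control cells. It was followed by MMP17 at 3.50 ± 0.51 CPM per kb in OE and 3.15 ± 0.47 CPM per kb in control cells. MMP2, MMP1 and MMP11 came next, between 1.10 and 1.78 CPM per kb on average. The libraries of these 3 genes overlapped in OE cells, while in control cells MMP11 lay below MMP1 and MMP2. The gelatinase MMP9 reached only 0.346 ± 0.045 CPM per kb in OE and 0.333 ± 0.069 CPM per kb in control cells. Among ADAMs, ADAM15 averaged 36.7 ± 2.9 CPM per kb in OE and 29.1 ± 2.3 CPM per kb in control cells, and ADAM9 20.2 ± 2.3 CPM per kb in OE and 30.0 ± 1.4 CPM per kb in control cells. These levels did not overlap in OE libraries and overlapped in control libraries. ADAM17 and ADAM10, the main sheddases of growth factors and of Notch, followed at 9.09 and 5.73 CPM per kb in OE and 10.01 and 7.49 CPM per kb in control cells. ADAMTS genes were low, with ADAMTS3 highest at 1.35 CPM per kb in OE and 1.80 CPM per kb in control cells. In all, 16 of the 42 members were under 1 CPM in both groups.

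**Figure D1:**
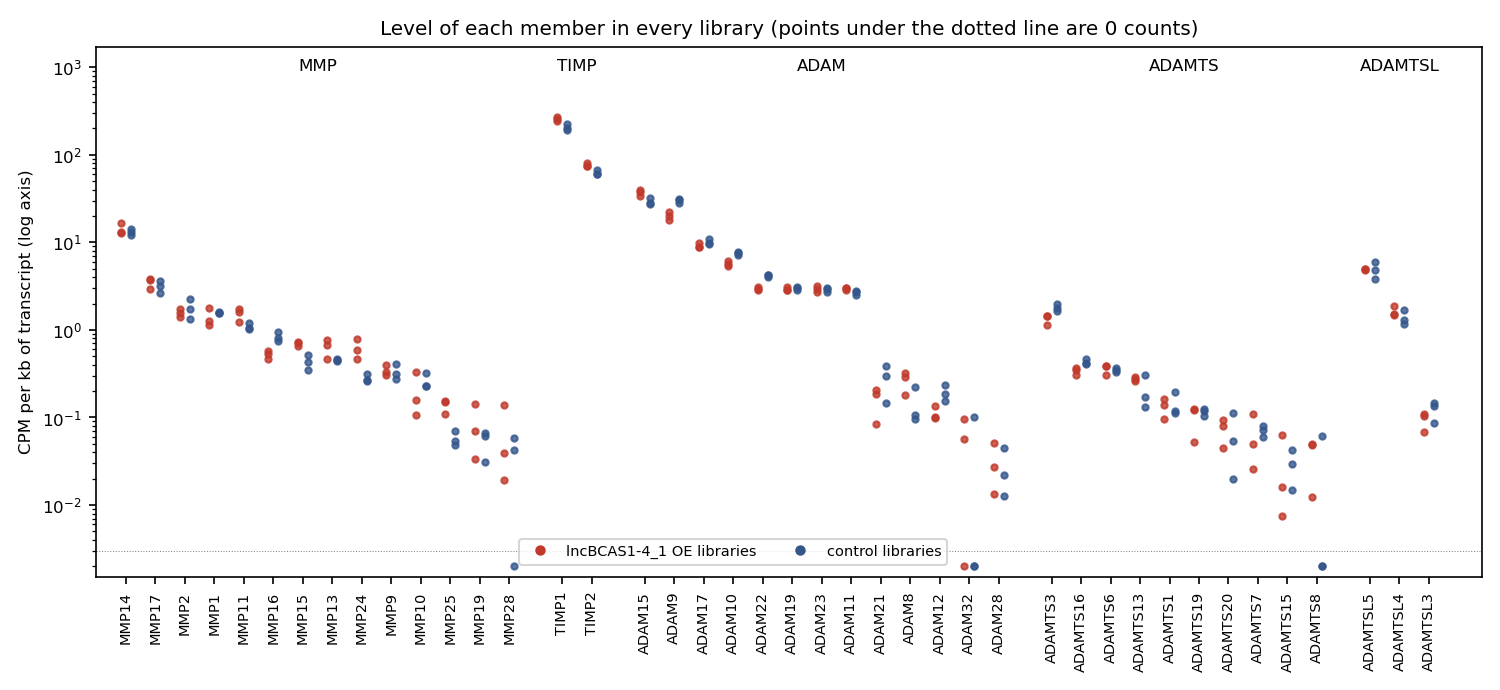
Level of each of the 42 members in every library, in CPM per kb of canonical transcript on a log axis, by family and in falling order within it (OE libraries red and left, control libraries blue and right; points under the dotted line are 0 counts). TIMP1 and TIMP2 lie above every protease, and most ADAMTS genes lie below 1 CPM per kb.

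Few of these genes differed strongly between the groups. Of 41 members tested, 6 were higher and 6 lower in OE cells at an adjusted p under 0.05 (edgeR quasi-likelihood test), while 18.3% of all tested entries were higher and 19.7% lower. Members were thus called in 29.3% of cases and all entries in 38%, so the family as a whole did not move more often than the background. With that correction 5 members passed as higher and 1 as lower, against 11.4% and 11.1% of all entries. The same 3 members passed in the same direction in both fits: MMP24 and TIMP2, which were higher, and ADAM9, which was lower. The median log2 fold change of the members was 0.041 as fitted and -0.018 corrected, and that of all entries -0.0041 and -0.012. All OE libraries lay above all control libraries for 8 of the 42 members and below them for 7, against 24.7% and 26% of all tested entries, and the groups overlapped for 27. MMP28 (4, 8 and 31 counts in OE and 0, 10 and 13 in control libraries) was too low to be tested. In these bulk samples fewer cells that make an RNA and less of it per cell cannot be told apart.

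**Figure D2:**
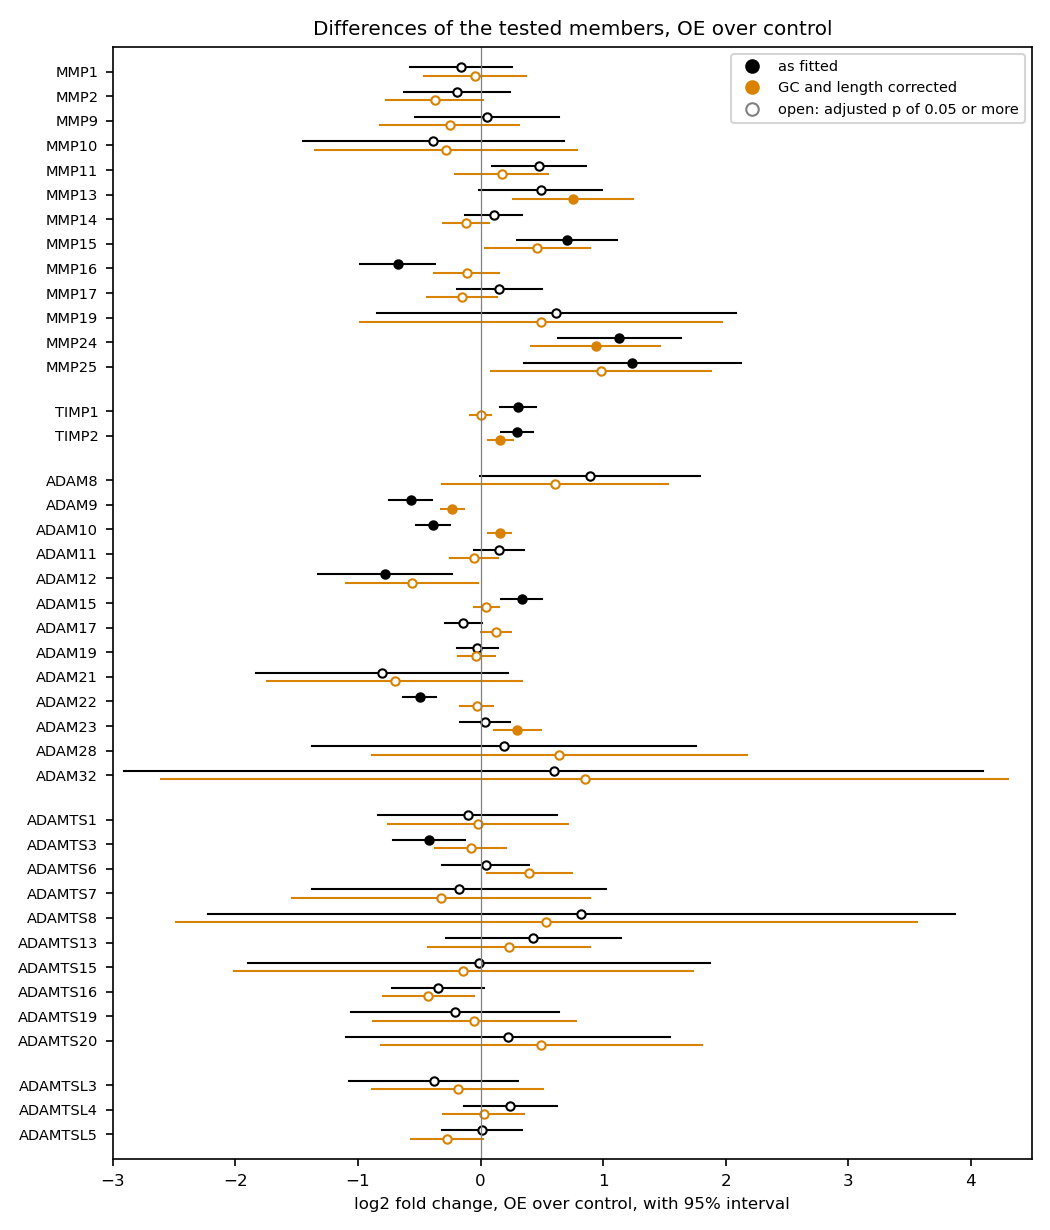
Log2 fold change of the 41 tested members, OE over control, with 95% intervals, as fitted (black) and corrected for GC content and length (orange), with filled points for an adjusted p under 0.05. MMP24, TIMP2 and ADAM9 are filled and on the same side in both fits, and ADAM10 is filled on opposite sides.

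Membrane-type MMPs, which are tethered to the cell surface by a transmembrane segment or a lipid anchor, held all the MMP calls made by edgeR as fitted: 3 of 6 were higher and 1 was lower. Their median log2 fold change was 0.43, and 0.17 corrected, where 1 was higher and none lower. The counts of this and the other families stand beside 18.3% of all entries higher and 19.7% lower as fitted, and 11.4% and 11.1% corrected. MMP15, MMP24 and MMP25, the higher genes, had 65.5%, 60.4% and 66.2% GC, and the lower MMP16 had 36.4%. As fitted, 39.3% of all entries above 55% GC were higher and 42.6% of those below 45% were lower. MMP24, a transmembrane protease first studied in the nervous system, was at 2.58, 2.05 and 3.46 CPM in OE libraries and at 1.38, 1.13 and 1.18 CPM in control libraries. Every OE library was above every control library. The fold change was 2.19 (log2 fold change 1.13, SE 0.22, adjusted p = 0.0035), and 0.94 (SE 0.23, adjusted p = 0.018) on the log2 scale after the correction. The corrected call was lost without control replicate 2 (adjusted p = 0.066), control replicate 3 (adjusted p = 0.057) or OE replicate 3 (adjusted p = 0.061). MMP24 (ENSG00000125966) spans chromosome 20 from 35226690 to 35276998 on the plus strand, and its exons overlap those of MMP24OS on the other strand. MMP24OS was at 60.7 CPM in OE and 49.9 CPM in control libraries, with a log2 fold change of 0.28 as fitted and -0.042 corrected. Whether counting used strand is not given in the sources used here, so reads of these genes may be shared.

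MMP25, a lipid-anchored MMP known from leukocytes, was at 0.403, 0.563 and 0.545 CPM in OE libraries and at 0.258, 0.180 and 0.200 CPM in control libraries. These are 34, 47 and 49 counts in OE and 23, 17 and 18 counts in control libraries, and the groups did not overlap. Its rise (log2 fold change 1.24, SE 0.39, adjusted p = 0.033) did not hold after the correction (0.98, adjusted p = 0.11). It was also lost without control replicate 1, 2 or 3 (adjusted p = 0.053, 0.099 and 0.072) or OE replicate 2 or 3 (adjusted p = 0.10 and 0.090). MMP25 overlaps exons of MMP25-AS1 on the other strand, which was at 2.58 CPM in OE and 2.46 CPM in control libraries.

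MMP15, a broadly expressed transmembrane MMP, was at 2.97, 2.90 and 2.67 CPM in OE libraries and at 2.08, 1.73 and 1.43 CPM in control libraries, again without overlap. It rose 1.63-fold as fitted (log2 fold change 0.71, SE 0.18, adjusted p = 0.013), with a corrected value of 0.46 (SE 0.19) that did not pass (adjusted p = 0.12). MMP16, a transmembrane MMP with a transcript of 36.4% GC, was at 6.11, 5.34 and 6.67 CPM in OE libraries and at 8.58, 10.9 and 9.45 CPM in control libraries. It fell by 0.68 on the log2 scale as fitted (SE 0.14, adjusted p = 0.0041), and the corrected value of -0.11 (95% interval -0.38 to 0.15, adjusted p = 0.56) did not pass. The 2 most abundant membrane-type MMPs overlapped between the groups. MMP14 was at 48.4, 61.8 and 47.4 CPM in OE and at 48.2, 45.02 and 53.2 CPM in control libraries (log2 fold change 0.11, 95% interval -0.13 to 0.34). Its corrected value was -0.12, which passed as lower only without OE replicate 2 (-0.23, adjusted p = 0.024). MMP17 was at 9.25, 9.06 and 7.02 CPM in OE and at 6.43, 7.63 and 8.69 CPM in control libraries (log2 fold change 0.15, 95% interval -0.19 to 0.50, corrected -0.15).

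**Figure D3:**
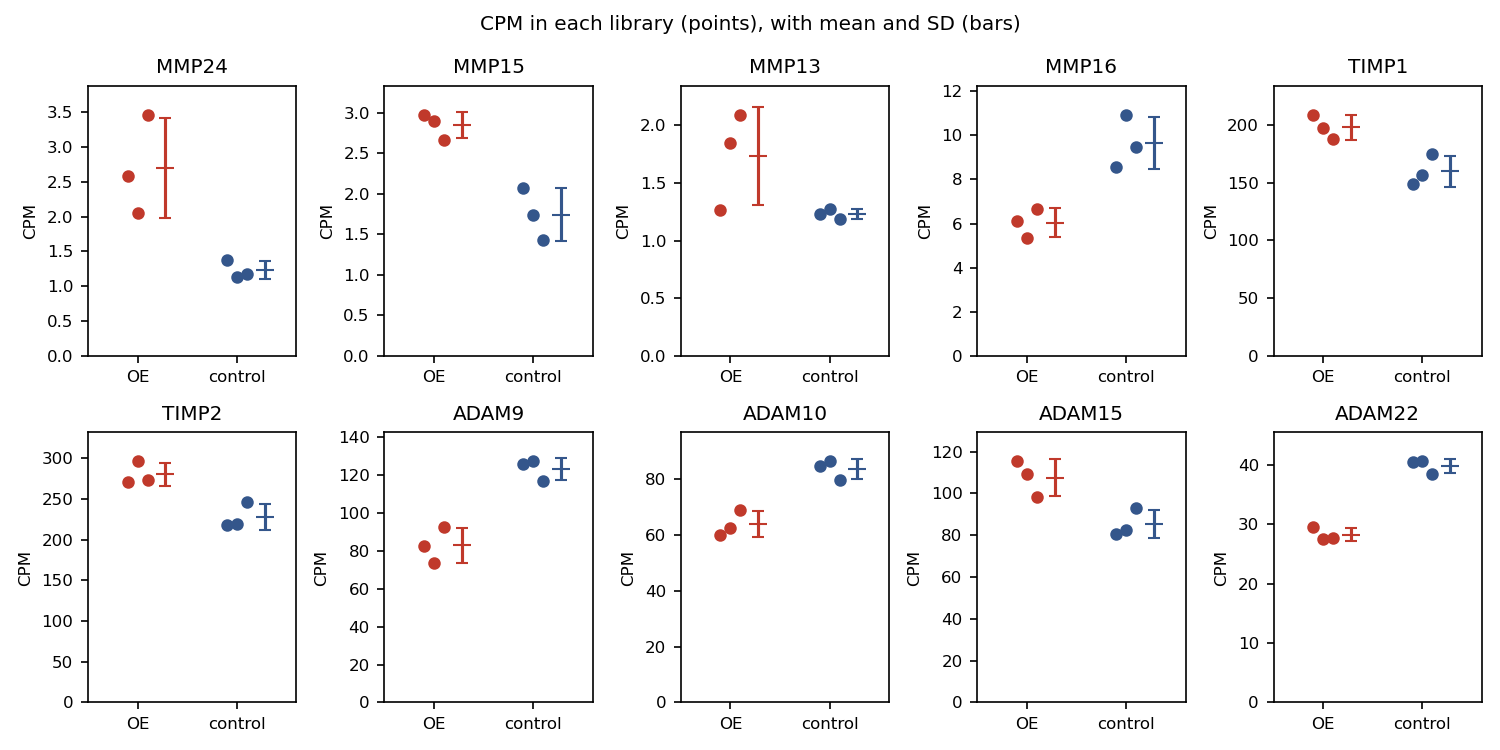
CPM of 10 members in each library (points; OE left, control right), with the mean and SD of 3 libraries per group beside them and axes that start at 0. OE libraries lie above control libraries for MMP24, MMP15, TIMP1, TIMP2 and ADAM15 and below them for MMP16, ADAM9, ADAM10 and ADAM22, while 1 of 3 OE libraries of MMP13 lies among the controls.

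Secreted MMPs had no call by edgeR among 7 tested as fitted, and their median was 0.055 on the log2 scale. MMP11 was the only 1 with an unadjusted p under 0.05, and DESeq2 called it higher while limma-voom called none of the 7. The collagenase MMP13 was at 1.27, 1.85 and 2.09 CPM in OE libraries and at 1.23, 1.28 and 1.19 CPM in control libraries, so that OE replicate 1 lay within the control range. Its log2 fold change of 0.49 (SE 0.22, adjusted p = 0.11) became 0.75 after the correction and then passed (SE 0.22, adjusted p = 0.034). That call was lost with a replicate block (0.73, adjusted p = 0.062) and when any of the other libraries than OE replicate 1 was left out (adjusted p between 0.072 and 0.11). Without OE replicate 1 MMP13 passed in both fits, with adjusted p = 0.034 as fitted and 0.013 corrected. The interstitial collagenase MMP1, from the same gene cluster on chromosome 11, was at 2.26, 3.49 and 2.50 CPM in OE and at 3.04, 3.12 and 3.06 CPM in control libraries, and the groups overlapped. The log2 fold change was -0.16 with a 95% interval of -0.57 to 0.25, and -0.044 corrected. MMP10, a stromelysin of that cluster whose AT-rich promoter is printed above, was at 0.190, 0.587 and 0.278 CPM in OE and 0.404, 0.571 and 0.401 CPM in control libraries. These are 16, 49 and 25 counts in OE and 36, 54 and 36 counts in control libraries. The log2 fold change of MMP10 was -0.38 (corrected -0.28) with a 95% interval of -1.45 to 0.68, and no difference was detected.

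The gelatinases, which degrade denatured collagen and basement membrane, overlapped between the groups. MMP2 was at 5.43, 6.05 and 4.95 CPM in OE and at 4.68, 6.12 and 7.96 CPM in control libraries (log2 fold change -0.19, 95% interval -0.62 to 0.24). Its corrected value of -0.37 (adjusted p = 0.17) passed as lower only without control replicate 1 (-0.54, adjusted p = 0.043). MMP9 was at 0.924, 0.719 and 0.778 CPM in OE and at 0.729, 0.645 and 0.957 CPM in control libraries (log2 fold change 0.055, 95% interval -0.53 to 0.64, corrected -0.25). MMP11, a stromelysin usually made by stromal cells, was at 3.93, 2.80 and 3.63 CPM in OE and at 2.34, 2.36 and 2.74 CPM in control libraries. The groups did not overlap, yet the log2 fold change of 0.48 lay just outside the threshold (adjusted p = 0.053) and was 0.17 after the correction. MMP11 passed by DESeq2 (adjusted p = 0.041), with the filter of 1 CPM in 3 libraries (adjusted p = 0.041) and without OE replicate 2 (adjusted p = 0.025). MMP19 was under 0.5 CPM in every library.

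Both TIMPs were higher as fitted. TIMP2, which besides inhibiting MMPs bridges MMP14 to pro-MMP2, was at 272, 296 and 273 CPM in OE libraries and at 218, 219.8 and 247 CPM in control libraries. All OE libraries lay above all control libraries. The difference was 1.23-fold (log2 fold change 0.30, SE 0.06, adjusted p = 0.0036) and was smaller after the correction (0.16, SE 0.05, adjusted p = 0.030). The corrected call was lost without control replicate 1 or 2 (adjusted p = 0.10 and 0.11) or OE replicate 2 or 3 (adjusted p = 0.088 and 0.060). TIMP2 (ENSG00000035862) spans chromosome 17 from 78852977 to 78925387 on the minus strand. TIMP1, an X-linked inhibitor of most secreted MMPs, was at 209, 197 and 188 CPM in OE libraries and at 149, 157 and 175 CPM in control libraries. The groups did not overlap and the log2 fold change was 0.31 (SE 0.07, adjusted p = 0.0053). After the correction it was 0.00063 (95% interval -0.086 to 0.088).

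Summed over the measured members, TIMP transcripts reached 346, 338 and 319 CPM per kb in OE libraries and 253, 264 and 295 CPM per kb in control libraries. MMP transcripts reached 24.4, 28.4 and 23.7 CPM per kb in OE libraries and 22.3, 22.6 and 25.7 CPM per kb in control libraries. The ratio of the TIMP sum to the MMP sum was 14.2, 11.9 and 13.4 in OE libraries and 11.3, 11.7 and 11.5 in control libraries. These sums are descriptions without a test and are not corrected for GC content.

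ADAMs with a catalytic site had 1 higher and 3 lower members of 9 as fitted, and 1 of each corrected. Their median log2 fold change was -0.14, and 0.045 corrected. ADAM9, a widely expressed sheddase, was at 82.7, 73.8 and 92.4 CPM in OE libraries and at 126, 127 and 117 CPM in control libraries. Every OE library was below every control library. ADAM9 fell by 0.57 on the log2 scale (SE 0.08, adjusted p = 0.00063), to 0.674 of the control level. The corrected value was -0.23 (SE 0.04, adjusted p = 0.0046), and both fits kept the call without any 1 of the 6 libraries. ADAM9 (ENSG00000168615) spans chromosome 8 from 38996754 to 39105445 on the plus strand and overlaps exons of TM2D2 on the other strand. TM2D2 went the other way, at 40.8 CPM in OE and 32.8 CPM in control libraries (log2 fold change 0.31, adjusted p = 0.0031, corrected 0.53).

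ADAM10, which cuts Notch receptors and cadherins, changed sign with the correction. It was at 60.1, 62.5 and 69.1 CPM in OE libraries and at 84.7, 86.4 and 79.6 CPM in control libraries, without overlap. As fitted it fell by 0.39 on the log2 scale (SE 0.06, adjusted p = 0.0012), and corrected it was higher by 0.16 (SE 0.04, adjusted p = 0.022). The corrected call was lost without control replicate 1 or 2 (adjusted p = 0.079 and 0.094) or OE replicate 2 or 3 (adjusted p = 0.059 and 0.055). No direction is therefore given for ADAM10. ADAM17, which releases TNF and ligands of the EGF receptor, was at 38.7, 38.3 and 42.7 CPM in OE and at 47.3, 41.8 and 42.7 CPM in control libraries, and the groups overlapped. Its log2 fold change was -0.14 (95% interval -0.29 to 0.01) as fitted and 0.13 (adjusted p = 0.13) corrected.

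ADAM15, an ADAM with an integrin-binding motif, was at 115, 109 and 98.2 CPM in OE libraries and at 80.6, 82.4 and 92.99 CPM in control libraries. It rose 1.26-fold as fitted (log2 fold change 0.33, SE 0.07, adjusted p = 0.0058), and the corrected value was 0.045 (adjusted p = 0.55). DCST1, which overlaps its exons on the same strand, averaged 0.259 CPM in OE and 0.872 CPM in control libraries. ADAM12, known from muscle and placenta and often raised in tumours, was low at 0.794, 1.07 and 0.790 CPM in OE and 1.87, 1.46 and 1.21 CPM in control libraries. It fell by 0.78 on the log2 scale as fitted (SE 0.24, adjusted p = 0.031), with -0.56 (adjusted p = 0.13) after the correction. The call as fitted was lost without control replicate 1 or 2 (adjusted p = 0.13 and 0.068) or OE replicate 1 or 3 (adjusted p = 0.093 and 0.083). ADAM19, a sheddase of neuregulin, was at 18.5 to 19.9 CPM in OE and 18.7 to 20.1 CPM in control libraries (log2 fold change -0.025, 95% interval -0.20 to 0.15, corrected -0.033). ADAM8 averaged 0.862 CPM in OE and 0.463 CPM in control libraries and passed as higher only without control replicate 1 (adjusted p = 0.028). ADAM21 averaged 0.420 CPM in OE and 0.734 CPM in control libraries, with an interval of -1.83 to 0.22 for the log2 fold change, and ADAM28 averaged 0.214 CPM in OE and 0.188 CPM in control libraries.

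Of 4 ADAMs without a catalytic site, 1 was lower as fitted and 1 higher after the correction, and these were different genes. ADAM22, a receptor for LGI proteins at synapses, was at 29.5, 27.5 and 27.8 CPM in OE libraries and at 40.5, 40.6 and 38.4 CPM in control libraries. As fitted it fell by 0.50 on the log2 scale (SE 0.06, adjusted p = 0.00038), the smallest adjusted p among the members. The corrected value was -0.029 (95% interval -0.16 to 0.11, adjusted p = 0.79). ADAM23, a relative of ADAM22 that also binds LGI proteins, was at 16.9, 20.2 and 18.6 CPM in OE and at 16.97, 18.8 and 18.5 CPM in control libraries, and the groups overlapped. Its log2 fold change was 0.037 as fitted (adjusted p = 0.80) and 0.30 corrected (SE 0.08, adjusted p = 0.030). The corrected call was lost without control replicate 1 or 2 (adjusted p = 0.11 and 0.078) or OE replicate 2 (adjusted p = 0.094). ADAM11 was at 13.1 to 13.8 CPM in OE and 11.5 to 12.8 CPM in control libraries. The groups did not overlap, and its log2 fold change of 0.15 did not pass (adjusted p = 0.24) and was -0.050 corrected. ADAM32 had counts in 2 of 3 OE and 1 of 3 control libraries.

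Among 10 ADAMTS proteases 1 was lower and none higher as fitted, and none passed after the correction. Their median log2 fold change was -0.058 as fitted and -0.034 corrected. At an unadjusted p under 0.05 the corrected fit has 2 of these genes, ADAMTS6 and ADAMTS16. ADAMTS3, a procollagen N-proteinase that also activates the lymphatic growth factor VEGFC, was at 9.08, 7.19 and 8.94 CPM in OE libraries and at 10.2, 11.2 and 12.4 CPM in control libraries. It fell by 0.42 on the log2 scale as fitted (SE 0.13, adjusted p = 0.030) and was at -0.080 (adjusted p = 0.72) after the correction. The call was lost without control replicate 2 or 3 (adjusted p = 0.072 and 0.090) or OE replicate 2 (adjusted p = 0.093). ADAMTS16 was at 1.74, 1.81 and 1.501 CPM in OE and at 2.10, 2.31 and 2.02 CPM in control libraries, without overlap, and its log2 fold change of -0.35 did not pass (adjusted p = 0.14, corrected -0.43 with adjusted p = 0.099). ADAMTS6 averaged 2.63 CPM in OE and 2.56 CPM in control libraries (log2 fold change 0.041, corrected 0.40 with adjusted p = 0.094). ADAMTS13, the protease of von Willebrand factor, was at 1.16 to 1.27 CPM in OE and 0.572 to 1.36 CPM in control libraries (log2 fold change 0.43, corrected 0.23), and passed as higher only without control replicate 3 (adjusted p = 0.033). The other 6 averaged under 1 CPM in both groups, and ADAMTS8, at 15, 15 and 4 counts in OE and 0, 21 and 0 counts in control libraries, passed only without control replicate 2 (adjusted p = 0.045).

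None of the 3 ADAMTS-like genes passed in either fit. None had an unadjusted p under 0.05 in either edgeR fit, and DESeq2 and limma-voom called none as fitted. ADAMTSL5, a microfibril-associated protein, was the most abundant, at 13.2, 13.0 and 13.3 CPM in OE and 13.0, 10.3 and 15.9 CPM in control libraries. Its log2 fold change was 0.010 (95% interval -0.32 to 0.34), and the corrected value of -0.27 passed as lower only without control replicate 2 (-0.41, adjusted p = 0.033). ADAMTSL4, a fibrillin-binding protein of the lens zonule, was at 6.32, 7.93 and 6.23 CPM in OE and at 5.40, 4.88 and 7.02 CPM in control libraries (log2 fold change 0.24, 95% interval -0.14 to 0.62, corrected 0.025). Its exons overlap those of MCL1 on the other strand, at 248 CPM in OE and 260 CPM in control libraries. Reads of ADAMTSL4 and MCL1 may be shared, as strandedness is not given. ADAMTSL3 averaged 0.687 CPM in OE and 0.897 CPM in control libraries.

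Calls of the members followed the base composition of the transcripts, as those of the whole table did. Of 15 members with a GC content below 45%, 5 were lower and none higher as fitted, and the median was -0.16 on the log2 scale. Over all tested entries of that GC content 2.82% were higher and 42.6% lower, with a median of -0.30. Of 18 tested members above 55%, 5 were higher and none lower, with a median of 0.27, while over all such entries 39.3% were higher and 2.02% lower, with a median of 0.25. After the correction the members below 45% had 3 higher and 1 lower with a median of 0.13, and those above 55% had 1 higher and none lower with a median of 0.013. The corrected shares of all entries were 11.9% higher and 12.3% lower below 45%, and 10.8% in each direction above 55%. Across the 26 members at 1 CPM or more, the Spearman correlation of GC content and log2 fold change was 0.65 as fitted and 0.048 corrected, a description over genes that share the same libraries. MMP24, at 60.4% GC, and MMP13, at 38.9% GC, had the largest corrected log2 fold changes of the 6 members called after the correction, 0.94 and 0.75.

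**Figure D4:**
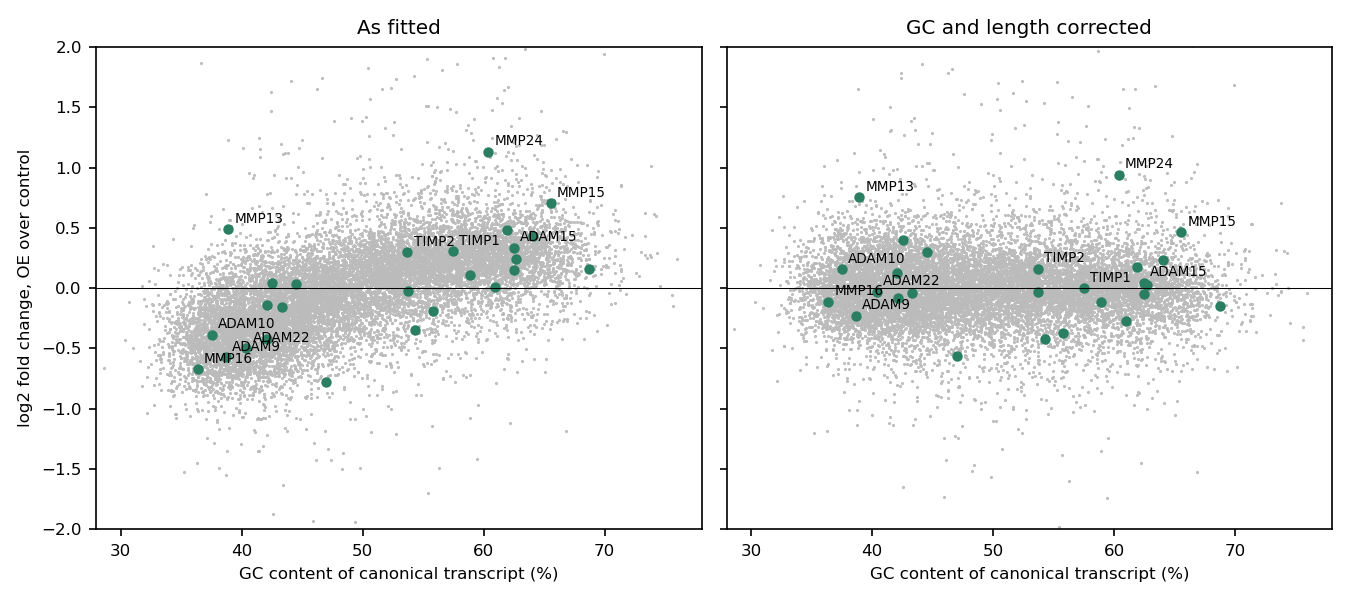
Log2 fold change, OE over control, against the GC content of the canonical transcript for 13887 entries at 1 CPM or more (grey) and 26 members (green), as fitted and after the GC and length correction. As fitted the cloud rises with GC content and the members with it, and corrected both lie around 0; 40 entries as fitted and 41 corrected lie beyond the axis at 2.

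Genes that activate or restrain these enzymes were examined from lists made by function. Their counts stand beside 18.3% of all entries higher and 19.7% lower as fitted, and 11.4% and 11.1% corrected. In the urokinase and proprotein convertase list 6 of 12 measured genes were higher, as fitted and corrected alike, with a median log2 fold change of 0.36 as fitted. Urokinase, PLAU, which starts the plasmin cascade that activates MMPs, was at 594, 613 and 572 CPM in OE and 452, 445 and 455 CPM in control libraries (1.32-fold, adjusted p = 0.00022, corrected log2 fold change 0.22). Its receptor PLAUR rose 1.33-fold (corrected 0.14, adjusted p = 0.018). For both genes all OE libraries lay above all control libraries.

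In the list of inhibitors, binders and uptake receptors, 7 of 12 measured genes were higher and none lower, and 5 were higher after the correction. The 7 included TIMP1 and TIMP2, already given above, and CD44, which is also in the list of shed proteins. BSG was among them too and did not pass corrected (adjusted p = 0.20). The inhibitor A2M and the uptake receptor LRP1 did not pass in either fit. TFPI2, a Kunitz-type inhibitor deposited in the matrix, was at 72.5, 72.6 and 67.5 CPM in OE and 41.2, 41.9 and 41.1 CPM in control libraries. It rose 1.71-fold (adjusted p = 2.6e-05), with a corrected log2 fold change of 1.06. CD63, a tetraspanin that binds TIMP1, rose 1.36-fold (corrected log2 fold change 0.25, adjusted p = 0.0012). RECK, the membrane-anchored MMP inhibitor, was at 8.73 CPM in OE and 9.34 CPM in control libraries (log2 fold change -0.097, adjusted p = 0.62).

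A list of ADAM partners, most of them in the transport of ADAM17 and ADAM10, had 4 of 12 higher and 1 lower as fitted, and 3 and 3 corrected. The scaffold genes SH3PXD2A and SH3PXD2B, which do not carry these enzymes, were in that list. SH3PXD2B was among those lower corrected (log2 fold change -0.13, adjusted p = 0.0496). RHBDF2, an iRhom that helps ADAM17 to mature, was at 66.1, 62.3 and 63.3 CPM in OE and 39.0, 42.0 and 46.1 CPM in control libraries (1.51-fold, adjusted p = 0.00028, corrected log2 fold change 0.34). The other iRhom, RHBDF1, averaged 7.61 CPM in OE and 6.64 CPM in control libraries. It did not pass in either fit (log2 fold change 0.20, corrected -0.10). The sorting protein PACS2 rose 1.34-fold (corrected log2 fold change 0.30). TSPAN5, a tetraspanin that escorts ADAM10, fell by 0.27 as a log2 fold change (adjusted p = 0.0011) and by 0.26 corrected. The tetraspanins of the list did not move together. TSPAN17 rose 1.33-fold (adjusted p = 0.00033, corrected log2 fold change 0.14, adjusted p = 0.021). TSPAN15 passed as lower only corrected (-0.32, adjusted p = 0.0022), and TSPAN10, TSPAN14 and TSPAN33 did not pass in either fit. Among 21 measured membrane proteins that ADAM10 or ADAM17 shed, 5 were higher and 4 lower, and 3 and 1 corrected. The EGF receptor ligand TGFA rose 1.37-fold (corrected log2 fold change 0.63) and the proteoglycan SDC4 1.24-fold (corrected 0.26). NRG1 and ALCAM fell by 0.41 and 0.49 on the log2 scale as fitted and did not pass corrected.

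A list of matrix partners of the ADAMTS and ADAMTS-like proteins had 3 of 20 higher and 2 lower, and 2 and 2 corrected. It also held the enzyme genes POFUT2 and B3GLCT, which are not matrix proteins. The 2 higher after the correction were POFUT2 and FN1 (corrected log2 fold change of FN1 0.25, adjusted p = 0.033). VCAN, the proteoglycan versican that several ADAMTS enzymes cleave, was at 15.7, 15.7 and 14.3 CPM in OE and 28.8, 29.1 and 27.6 CPM in control libraries. As fitted VCAN fell by 0.91 in log2 terms (adjusted p = 9.8e-05), and by 0.47 corrected (adjusted p = 0.0030). FBN2, a fibrillin of elastic microfibrils, fell by 0.36 as fitted and by 0.15 corrected. POFUT2, which adds fucose to the thrombospondin repeats of ADAMTS proteins, rose 1.40-fold (corrected log2 fold change 0.24). LTBP4 rose 1.15-fold and did not pass corrected (adjusted p = 0.85). Of 6 other zinc proteases measured, 2 were higher and 2 lower as fitted, and 2 and none corrected. BMP1, the procollagen C-proteinase, rose 1.45-fold (corrected log2 fold change 0.30, adjusted p = 0.0065) and ECE1 1.19-fold (corrected 0.11), while MME and LMLN fell by 0.44 and 0.34 as fitted and did not pass corrected.

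AP-1 and ETS factors, which bind in MMP promoters, had 6 of 14 higher and 2 lower, and 4 and 3 corrected. JUNB rose 1.98-fold (corrected log2 fold change 0.65) and FOSL2 1.55-fold (corrected 0.64), while ETV1 and ETS1 fell by 0.55 and 0.19 as fitted and did not pass corrected. The largest rises of the list, in FOS (3.33-fold, corrected log2 fold change 1.55) and FOSB (4.64-fold, corrected 2.01), passed in both fits at 7.55 and 2.19 CPM in OE and 2.27 and 0.472 CPM in control cells. FOSL1, JUN and ETV4 passed as lower only after the correction, at -0.42, -0.29 and -0.46 on the log2 scale. MMP10, the member whose window held the AP-1 motif, did not pass in either fit. It averaged 0.352 CPM in OE and 0.458 CPM in control cells. MMP1, MMP9 and MMP13 were among the members without a promoter window. The part of AP-1 factors in these genes was not tested.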

How the data were processed

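Per the labels' protocols, TRIzol was used for extraction and fastp for trimming. The authors then mapped to GRCh38 (HISAT2), assembled with StringTie, merged transcriptomes with gffcompare, estimated levels with StringTie and tested with edgeR. The sources used here give no tool versions, no strandedness and no account of how counts were taken. The deposited values are raw counts per gene, with no normalization. For the tests, edgeR 4.0.16 (R 4.3.3) was applied to them (TMM, filterByExpr with min.count 10, quasi-likelihood F-test, group alone, Benjamini-Hochberg over 19101 entries, threshold 0.05). SEs were derived from the log2 fold change and its F statistic. Low members rest on few counts.

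Members and lists were chosen with earlier results of these data known. All 42 members had the same symbol for their Ensembl ID in GENCODE 44, which gave GC content and length of canonical transcripts. The correction fitted natural splines with 5 degrees of freedom to each library's deviation in log2 CPM and entered them as offsets. Members named with each library's value were those past the threshold in either fit, all TIMPs and the 2 most abundant of each family. MMP1, MMP2, MMP9, MMP10, MMP11, MMP19, MMP28, ADAM8, ADAM11, ADAM17, ADAM19, ADAM21, ADAM28, ADAM32, ADAMTS6, ADAMTS8, ADAMTS13 and ADAMTSL3 were added after their values were seen. So were RECK, RHBDF1, SH3PXD2A, SH3PXD2B, FOS, FOSB, FOSL1, JUN, ETV4 and the overlapping genes. KRT19, BSG, CD44, A2M, LRP1, FN1, B3GLCT, TSPAN10, TSPAN14, TSPAN15, TSPAN17 and TSPAN33 were also added then. List genes were up to 2 rising and 2 falling of smallest p. A result for 1 listed gene is not reported here. Alternatives were other scalings and filters, DESeq2 1.42.0, limma-voom (limma 3.58.1), a replicate block and leaving out each library.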

Additional observations from a re-analysis of the deposited data

How the results depend on the processing

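DESeq2, limma-voom, DESeq2 size factors, no filter and, for the 18 that passed it, a filter of 1 CPM in 3 libraries kept the direction and the call of the 19 members named by rule. DESeq2 called 7 members higher, 4 of them MMPs, because MMP11 passed (adjusted p = 0.041), as it did with the 1 CPM filter. Scaling by library size alone turned ADAM23 (-0.012) and ADAMTSL5 (-0.039), neither of them called. The GC and length correction left 2182 entries higher and 2128 lower, with 5 members higher and 1 lower, 2 MMPs higher and 0 lower, 1 TIMP higher, 2 ADAMs higher and 1 lower and 0 ADAMTS genes lower. It turned 7 members: ADAM10 (0.16), MMP14 (-0.12), MMP17 (-0.15), ADAMTSL5 (-0.27), MMP9 (-0.25), ADAM11 (-0.050) and ADAM17 (0.13).

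Whether the shared replicate numbers pair the libraries is not described. Deviations of libraries with the same number correlated at -0.073, -0.26 and -0.44, and none correlated best with its own number. With 3 libraries per group these deviations are tied to one another, so they cannot settle the pairing. With the replicate block 0 ADAMTS genes were lower, and MMP25, ADAM12 and ADAMTS3 did not pass (adjusted p = 0.089, 0.058 and 0.056). With the replicate block and the correction together 1745 entries were higher and 1652 lower, with 1 member lower, 1 MMP higher (MMP13 was lost, adjusted p = 0.062) and 0 lower, 1 TIMP higher, 2 ADAMs higher and 1 lower and 0 ADAMTS genes lower, and ADAM10 (0.16), MMP14 (-0.12), MMP17 (-0.15) and ADAMTSL5 (-0.26) were again turned. By the criterion of the labels, over 2-fold at an unadjusted p under 0.05, 338 entries were higher and 226 lower. Of the members 2 were higher (MMP24 and MMP25) and 0 lower, and 0 TIMPs, ADAMs or ADAMTS genes passed.

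Leaving out each library gave 5 to 7 members higher and 4 to 5 lower, with 2 to 4 MMPs higher, 1 to 2 ADAMs higher, 3 to 4 ADAMs lower, 0 to 1 ADAMTS genes higher and 0 to 1 lower, and 2586 to 3439 entries higher and 2867 to 3730 lower. MMP14 ranged from -0.025 to 0.17, ADAM23 from -0.024 to 0.099 and ADAMTSL5 from -0.14 to 0.18. Leaving out each library in the corrected fit, which was chosen after seeing the data, gave 0 to 5 members higher and 1 to 2 lower, 0 to 2 MMPs higher and 0 to 1 lower, 0 to 1 TIMPs higher, 0 to 2 ADAMs higher, 0 to 1 ADAMTS-like genes lower, and 1505 to 1955 entries higher and 1343 to 1774 lower. There TIMP1 ranged from -0.037 to 0.038, ADAM22 from -0.073 to 0.025, ADAMTS3 from -0.16 to 0.028 and ADAMTSL4 from -0.076 to 0.15. The cause of these shifts was not tested. Members under 1 CPM are limited by depth.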
